A study of Mus musculus with 19 samples.

Results

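Proteasome subunit genes were examined in striatal RNA from 19 mice. The members are the protein-coding genes of the authors' tables whose symbol starts with Psma, Psmb, Psmc or Psmd followed by a digit, a rule that used no measured value. It found 40 of the 22901 genes named there, of which 16367 are protein-coding. One of the 40, Psmc3ip, encodes a meiotic recombination protein and is no proteasome subunit, so 39 genes encode subunits or proteins named with them.

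All mice were males of 4 months carrying the D2RCre_floxCas9-EGFP genotype, in which Cre driven by the D2 dopamine receptor gene switches on Cas9. Both genotypes received an AAV5 virus in the medial prefrontal cortex. PFC_D2R-KO mice (knockout below) were given D2R-sgRNA, which guides Cas9 to the receptor gene, and control mice were given syn-mCherry with no guide. Every mouse had saline on 5 days, and the challenge on day 9 was saline or amphetamine at 3 mg/kg. The labels' protocols put the dissection 90 min after the amphetamine injection and give no separate time for saline. Each library is 1 mouse, with 5 mice in each of the saline groups, 5 amphetamine-treated controls and 4 amphetamine-treated knockouts. The cut was limited to virus-infected D2 receptor cells of the prefrontal cortex, and RNA was measured in the striatum, so no striatal level checks the knockout. Because the tissue is bulk, fewer cells of a type and less RNA per cell cannot be told apart.

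The 26S proteasome degrades proteins that carry ubiquitin chains. Its 20S core is a barrel of outer alpha rings (Psma genes), which gate entry, and inner beta rings (Psmb genes), which hold the proteolytic sites. The 19S cap consists of a base, with the ring of Psmc ATPases that unfold the substrate, and a lid of Psmd subunits that removes the ubiquitin. Psmb5, Psmb6 and Psmb7 carry the chymotrypsin-like, caspase-like and trypsin-like sites, and interferon signalling replaces them with Psmb8, Psmb9 and Psmb10 to make the immunoproteasome. Subunits are built into the particle in fixed ratios. When the proteasome is inhibited, the factor Nrf1 (gene Nfe2l1) raises many subunit genes together through antioxidant response elements in their promoters. Neurons depend on this machinery for synaptic protein turnover.

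The promoters of 2 constitutive catalytic subunits and of the 2 inducible genes that replace them are shown because the levels of these pairs differed most. They are RefSeq sequences of the GRCm38.p6 build, 250 bases before to 50 bases after the start, written 5′ to 3′. Capitals mark a match to the antioxidant response element TGACNNNGC, searched on both strands.
Psmb5, chr14:54617946-54618245, minus strand: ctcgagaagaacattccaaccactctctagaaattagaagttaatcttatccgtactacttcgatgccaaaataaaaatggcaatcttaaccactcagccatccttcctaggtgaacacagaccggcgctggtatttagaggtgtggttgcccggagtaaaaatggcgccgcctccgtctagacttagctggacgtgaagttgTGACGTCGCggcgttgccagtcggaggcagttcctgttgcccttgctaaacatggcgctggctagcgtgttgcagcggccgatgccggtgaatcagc
Psmb6, chr11:70525107-70525406, plus strand: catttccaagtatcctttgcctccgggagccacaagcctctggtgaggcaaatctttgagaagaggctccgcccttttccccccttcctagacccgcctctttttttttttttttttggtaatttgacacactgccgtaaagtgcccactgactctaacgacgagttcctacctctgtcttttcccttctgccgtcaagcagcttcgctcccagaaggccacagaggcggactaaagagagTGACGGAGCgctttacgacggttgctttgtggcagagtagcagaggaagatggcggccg
Psmb8, chr17:34197945-34198244, plus strand: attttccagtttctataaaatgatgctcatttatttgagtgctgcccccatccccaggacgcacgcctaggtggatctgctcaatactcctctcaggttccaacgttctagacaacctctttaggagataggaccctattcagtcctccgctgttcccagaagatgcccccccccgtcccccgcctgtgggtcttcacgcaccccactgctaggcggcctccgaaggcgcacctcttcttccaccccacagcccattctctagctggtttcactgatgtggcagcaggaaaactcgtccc
Psmb9, chr17:34187281-34187580, minus strand: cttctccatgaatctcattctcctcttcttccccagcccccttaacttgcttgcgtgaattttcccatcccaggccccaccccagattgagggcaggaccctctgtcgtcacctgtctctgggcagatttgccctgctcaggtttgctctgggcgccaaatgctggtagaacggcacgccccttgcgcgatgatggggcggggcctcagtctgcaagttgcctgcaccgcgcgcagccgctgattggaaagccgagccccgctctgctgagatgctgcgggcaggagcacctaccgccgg
The Psmb5 match lay at positions -47 to -39 from the start and the Psmb6 match at -9 to -1, while these windows of Psmb8 and Psmb9 held none. RefSeq promoters were found for 33 of the 40 members. These genes have 35 promoters in the table, and shares are given per promoter. The element's letters occurred in 5 of the 35 (14.3%), namely those of Psmb5, Psmb6, Psmc6, Psmd9 and Psmd12, against 12.4% of all 32851 promoters of the same length. Heat shock half-site pairs (GAANNTTC or TTCNNGAA) occurred in 3 of 35 (8.57%), against 15.1% of all promoters. The CCAAT box (CCAAT) occurred in 14 of 35 (40%), against 37.4%. The member promoters had a median GC content of 56.7% and 19 CG dinucleotides, compared with 52.7% and 7 over all promoters. A match is a description of the letters and not evidence of a bound site.

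Library totals ran from 57003408 to 85536346 counts, and the members took 0.307% to 0.369% of them in 18 libraries and 0.455% in saline knockout library 3. Striatal projection neuron markers (10 of 10 tested, none at 0) summed to 2820.4 to 4028 CPM (counts scaled by library size with TMM factors) in saline control, 4281 to 5503 CPM in amphetamine control, 2249 to 4764 CPM in saline knockout and 1441 to 4164 CPM in amphetamine knockout mice. The amphetamine control libraries thus lay above every saline control and every amphetamine knockout library. Cortical projection neuron markers summed to between 175 and 1124 CPM, ependymal markers to between 13 and 52.4 CPM, hypothalamic markers to between 9.53 and 184 CPM and endothelial and pericyte markers to between 246 and 379 CPM. Choroid plexus markers summed to 674 CPM in 1 amphetamine knockout library and to at most 67.3 CPM in all others. The part of this tissue variation in the members' values was not tested.

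The constitutive subunits were abundant and lay close to one another. Levels are compared between genes in the authors' FPKM, which is scaled by gene length. The 31 constitutive members of the 26S particle had a median of 56.3 FPKM, and 93.5% of protein-coding genes had a lower mean than that; the median protein-coding gene stood at 6.07 FPKM. They ran from 20.6 FPKM for Psmd11, a lid scaffold, to 111 FPKM for Psmc5, a base ATPase. That is a 5.4-fold range, and 30 of the 31 lay within 2-fold of their median. The 14 genes of the 20S core had a median of 60.3 FPKM and the 17 of the base and lid 44 FPKM.

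Within the core, the alpha ring genes ran from 36.5 FPKM (Psma2) to 93 FPKM (Psma6), leaving out Psma8. The beta subunits without an active site ran from 41.9 FPKM (Psmb3) to 103 FPKM (Psmb4), and Psmb4 was the most abundant core gene. In the base, the ATPases spanned 30.9 FPKM (Psmc2) to 111 FPKM (Psmc5), with Psmc1 next at 109 FPKM. Psmd2 and Psmd1, the large scaffold subunits of the base, stood at 76.6 and 55.8 FPKM, and the ubiquitin receptor Psmd4 at 44 FPKM. In the lid, Psmd7 had 59.5 FPKM and its partner Psmd14, the deubiquitinase, had 57.8 FPKM. The chaperones of base assembly were lower than every constitutive subunit, with Psmd5 at 15.7 FPKM, Psmd10 (gankyrin) at 14.4 FPKM and Psmd9 at 11.2 FPKM.

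**Figure D1:**
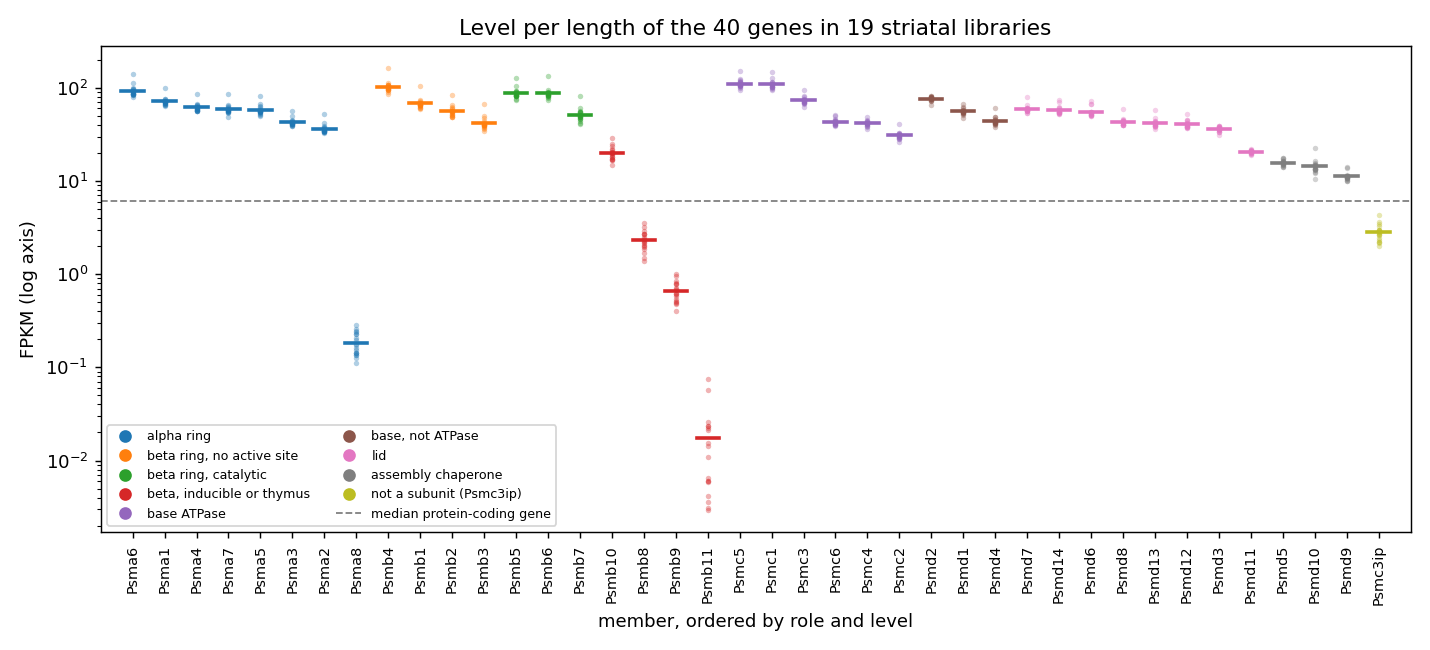
FPKM (log axis) of the 40 members, ordered by role, with a point for each of 19 libraries and a bar at the mean. Constitutive subunits lie between 20.6 and 111 FPKM, while Psmb8, Psmb9, Psmb11, Psma8 and Psmc3ip fall below the median protein-coding gene at 6.07 FPKM (dashed); values at 0 cannot be drawn on this axis.

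Genes for tissue-restricted forms were low. Psma8, an alpha subunit of testis (chromosome 18, GRCm39), had 14 to 39 counts per library and a mean of 0.184 FPKM. Psmb11, the subunit of the thymic cortex, had 101 counts in all and 0 to 23 per library, and it alone failed the filter on low counts. The other 39 members passed that filter and were tested. Psmc3ip stood at 2.81 FPKM. For 12 of the 40 members another gene of the tables overlaps in position, among them Nek6 for Psmb7 and Tap1 for Psmb9; whether the counting used strand is not stated, and their counts are uncertain to that extent.

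Inducible catalytic subunits were rarer than the constitutive ones they replace, but not to the same degree. Psmb5 (GRCm39 chromosome 14, 54851576 to 54855479) had a mean of 87.6 ± 11.6 FPKM and Psmb8 (chromosome 17, 34416695 to 34420428) 2.32 ± 0.556 FPKM (SD, n = 19 each). The FPKM ratio of Psmb5 to Psmb8 had a median of 39.1 over libraries and ran from 24 to 60.6. Psmb6 (chromosome 11, 70416212 to 70418475) had 87.5 ± 12.3 FPKM and Psmb9 (chromosome 17, 34400961 to 34406738) 0.664 ± 0.164 FPKM, a median ratio of 140 and a range of 84.7 to 235. Psmb7 (chromosome 2, 38478048 to 38534099) had 51.7 ± 8.8 FPKM and Psmb10 20 ± 3.29 FPKM. Their ratio was 2.34 to 2.96 in all libraries, with a median of 2.55. Psmb10 therefore stood nearly level with the lowest constitutive subunit, Psmd11, whereas Psmb8 and Psmb9 did not reach the median protein-coding gene.

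The median level of the members differed from library to library, with the widest departure in 1 mouse. For each library the deviation of a member is its log2 CPM minus its own mean over the 19 libraries. The median deviation of the 39 tested members was 0.49 in saline knockout library 3, against -0.15 to 0.08 in the other 18. There the 14 core genes had a median deviation of 0.58 and the 17 base and lid genes 0.39. In this library 34 of 39 members had their highest level of all 19, as did 20.7% of all genes tested. The exceptions were Psma8, Psmb8, Psmb9, Psmd2 and Psmd11.

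Psmb4, a beta ring subunit, is a strong example, with a deviation of 0.69 in saline knockout library 3 against a member median of 0.49. It had 117, 119, 115, 122 and 126 CPM in saline control libraries 1 to 5 and 133, 114, 116, 111 and 107 CPM in the amphetamine control libraries. In the saline knockout libraries it had 102, 121, 195, 126 and 127 CPM, and in the amphetamine knockout libraries 113, 126, 119 and 113 CPM. Every library but saline knockout 3 lay between 102 and 133 CPM, and the groups overlapped. Psmb7, the trypsin-like subunit, with a deviation of 0.70, stood at 236 CPM in saline knockout library 3 and at most at 171 CPM in any other. The lid subunit Psmd11, in contrast, had 60.2 CPM there and 64.5 CPM in its highest library.

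**Figure D2:**
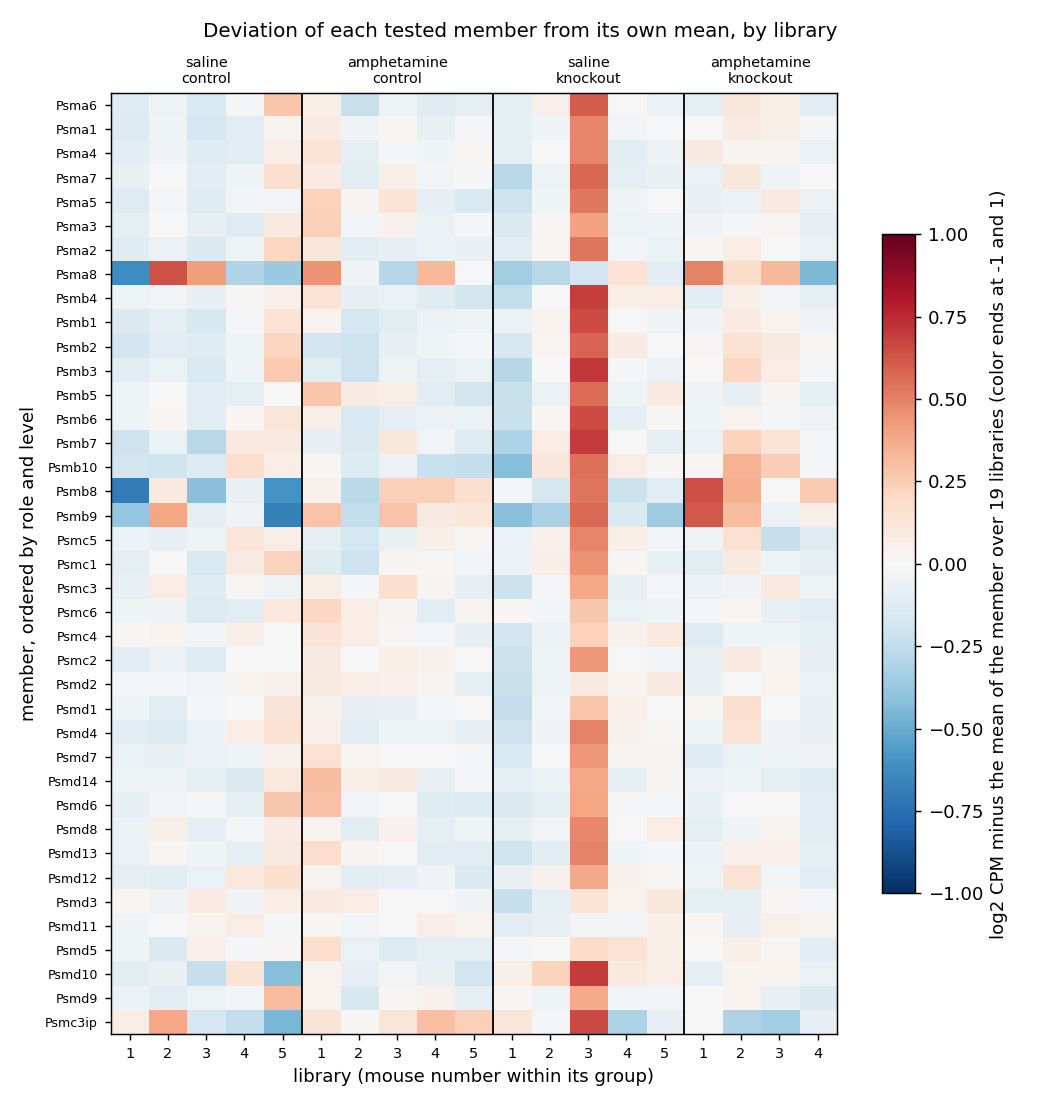
Deviation (log2 CPM minus the member's mean over 19 libraries) of the 39 tested members in each library, grouped by treatment and genotype. Saline knockout library 3 forms a red column with a median of 0.49, while the other 18 libraries have medians between -0.15 and 0.08.

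The same library departed along gene length. Lengths were inferred from the ratio of counts to FPKM, and 6578 genes with a mean log2 CPM over 5 were split into 6 equal bins. In saline knockout library 3 the median deviation fell steadily across the bins, from 0.45 for the shortest genes to 0.18, 0.00, -0.14, -0.31 and -0.57 for the longest. In the other 18 libraries the bin medians stayed between -0.08 and 0.10, and those of the shortest bin between -0.08 and 0.05. The member medians of those 18 libraries, from -0.15 to 0.08, were not set against the bins. The members are short, with a median inferred length of 1880 bases against 4043 over these genes, and core genes are shorter (1218 bases) than base and lid genes (1980 bases). Of the 32 members with a bin, 22 fell in the shortest, where their median was 0.49, and 8 in the next, with a median of 0.27. Each member was also set against the median of its own bin, which does not take out length within a bin. The shortest bin ran from 168 to 2180 bases with a median of 1623, above the core median and below that of the base and lid. Role and length were therefore not told apart here. All 14 core genes stood higher, with a median difference of 0.17 on the log2 scale, while 7 of 17 base and lid genes did, with a median difference of -0.02. Over all 32 members 22 stood higher, with a median difference of 0.06. This library also had the highest haemoglobin and Alas2 sum, 421 CPM against 51 to 259 elsewhere. Its oligodendrocyte sum was the highest, 6683 against at most 6399 CPM, and its astrocyte sum the lowest, 3086 against at least 3558 CPM. Slc1a2 alone made up 1263 CPM of that astrocyte sum. The astrocyte list as a whole was not lowest: its median deviation of -0.12 lay inside the -0.16 to 0.17 of the other 18 libraries. These markers were not set against that library's trend along gene length. No marker of these lists was at 0, and their part in the members' level was not tested.

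**Figure D3:**
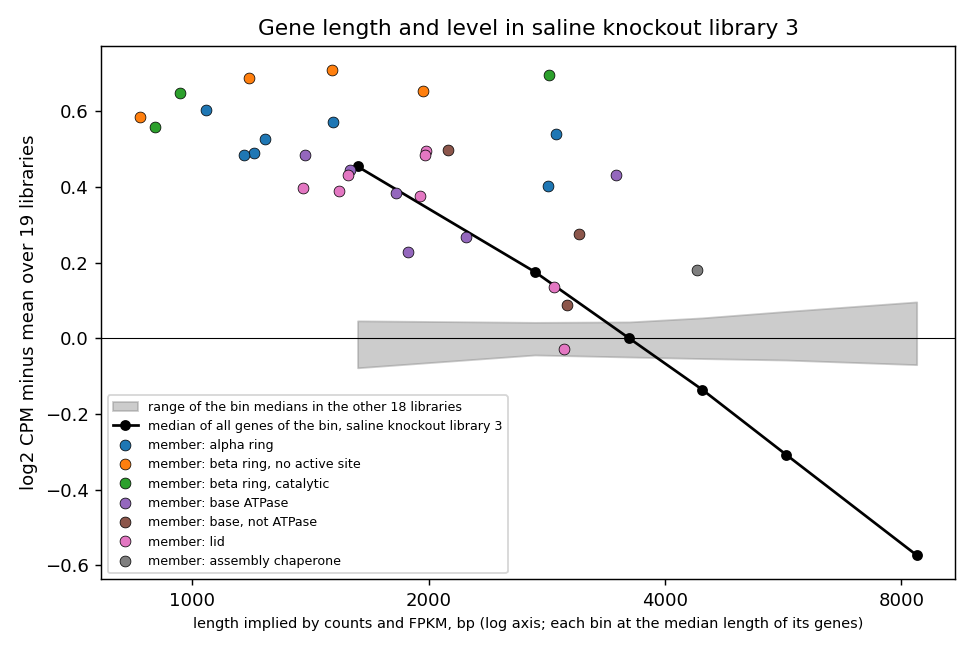
Deviation in saline knockout library 3 (log2 CPM minus the mean over 19 libraries) against inferred gene length (log axis), for members by role and for the median of all genes in 6 length bins; grey spans the bin medians of the other 18 libraries. The bin medians run from 0.45 to -0.57 with length, and 14 of 14 core genes but 7 of 17 base and lid genes lie above the median of their bin. Length within a bin is not taken out, and core genes are the shorter ones.

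The constitutive subunits varied between mice of a group about as much as other genes with all libraries, and less without saline knockout library 3. Their within-group standard deviation of log2 CPM had a median of 0.149 over the 31 genes, and 0.0918 without saline knockout library 3. Over 9178 genes with a mean log2 CPM over 4 the median was 0.148, and 0.119 without that library.

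Amphetamine against saline in control mice asks how the drug alone acted on these genes. No member was called by edgeR's quasi-likelihood test at an adjusted p under 0.05, where 1 of all 21513 genes tested was called (0.00465%). One member had an unadjusted p under 0.05, against 11.8% of all genes, and DESeq2 (0.92% of all genes called) and limma voom (0.00465%) also called 0 members. The fitted log2 fold changes had a median of 0.01, with 22 members above 0 and 17 below, and 48.4% of all genes lay above 0. The median was -0.01 without amphetamine control library 1, and 0.00 with 21 members above 0 (47%) without saline knockout library 3. The core median was 0.00 and the base and lid median 0.01. The 95% confidence interval stayed within a 1.5-fold change for 36 of 39 members, the exceptions being Psma8, Psmb8 and Psmb9. In the same comparison 10 of 10 striatal projection neuron markers lay above 0, with a median of 0.48, and 8 of 8 ependymal markers lay below 0, with a median of -0.68. None of these markers was called by edgeR, and their part in the members' values was not tested.

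Psmb8 had the smallest p of the members in control mice. It stood at 2.64, 4.61, 3.22, 4.09 and 2.83 CPM in the saline control libraries and at 4.42, 3.56, 5.09, 5.09 and 4.80 CPM in the amphetamine control libraries. The groups overlapped, although 3 of 5 amphetamine libraries lay above every saline library. The group means were 3.48 ± 0.844 and 4.59 ± 0.637 CPM (SD), and the log2 fold change was 0.40 ± 0.177 (SE), not called at an adjusted p of 0.383. Next were the deubiquitinase Psmd14, at 0.13 ± 0.0887 (adjusted p = 0.623), and Psmc3ip, at 0.22 ± 0.171 (adjusted p = 0.665). The authors' deposited table called 0 of 40 members in this comparison, where it called 795 genes (3.47%), and put Psmb8 at 0.40 on the log2 scale (adjusted p = 0.17).

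In knockout mice, amphetamine against saline again gave 0 calls among the members, against 1 gene of 21513 (0.00465%), with 1 member at an unadjusted p under 0.05 (12.1% of all genes). DESeq2 (0.46% of all genes called) and limma voom (0.0139%) called 0 members too. In the authors' deposited table none of the 40 was called, where 131 genes were (0.573%). The members' median log2 fold change was -0.08, with 6 of 39 above 0 against 48.9% of all genes. All 14 core genes lay below 0. This direction rested on saline knockout library 3: without it the median was 0.03 with 25 members above 0 (49.9% of all genes), and 13 of the 14 core genes lay above 0. The smallest p was that of Psmd10, at -0.27 ± 0.12 (adjusted p = 0.379), or -0.14 without that library. Psmc5 stood at -0.17 ± 0.1 (adjusted p = 0.49) and Psmd7 at -0.15 ± 0.0849 (adjusted p = 0.471), and without the library these values were -0.06 and -0.05.

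The average response over both genotypes uses all 19 libraries and had a median SE of 0.0714 over members, against 0.098 in control mice alone. No member was called by edgeR, which called 32 genes of 21513 (0.149%), by DESeq2 (2.02%) or by limma voom (0.139%), and 1 member had an unadjusted p under 0.05 (14.5% of all genes). The member median was -0.03 with 11 members above 0 (47.5% of all genes), or 0.02 with 27 above 0 (47.8%) without saline knockout library 3. Psmb8 was at 0.35 ± 0.128 (adjusted p = 0.215), and at 0.43 without that library (adjusted p = 0.105). Over all alternatives its adjusted p ran from 0.0727 to 0.364 and its fold change from 0.29 to 0.44, so it was called under none of them. Psmb9 was at 0.29 ± 0.157 (adjusted p = 0.409). Psmc5, Psmc1 and the lid subunit Psmd12 followed at -0.11 ± 0.0689, -0.10 ± 0.0686 and -0.08 ± 0.0595, and without that library they were at -0.06, -0.06 and -0.05.

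Psmb8 and Psmb9 lie near each other on chromosome 17 and are interferon targets. Psmb9 stood at 1.42, 2.46, 1.75, 1.82 and 1.16 CPM after saline and at 2.27, 1.57, 2.28, 1.98 and 2.03 CPM after amphetamine in controls. In knockout libraries it had 1.39, 1.48, 2.77, 1.68 and 1.45 CPM after saline and 2.87, 2.31, 1.77 and 1.94 CPM after amphetamine. With saline knockout library 3 left aside, the saline and amphetamine knockout values of Psmb9 did not overlap. The same held for Psmb8 and Psmd10, 3 of 39 members (7.69%), and for 7.18% of all genes tested. The Psmb9 fold change in knockout mice was 0.34 ± 0.227 (adjusted p = 0.537), and 0.57 without that library (adjusted p = 0.419; 0.357 to 0.793 over all alternatives). Psmb8 had 4.27, 3.82, 6.24, 3.69 and 3.96 CPM in the saline knockout and 6.74, 5.51, 4.28 and 5.15 CPM in the amphetamine knockout libraries, with a fold change of 0.30 ± 0.186 (adjusted p = 0.512), and 0.46 without saline knockout library 3 (adjusted p = 0.435). Psmb10 stood at -0.01 ± 0.0943 over the genotypes (adjusted p = 0.974), and at 0.06 without that library (adjusted p = 0.789). No test compared the 3 genes with each other. The FPKM ratio of Psmb5 to Psmb8 had a median of 47.8 in saline control, 33.9 in amphetamine control, 41.5 in saline knockout and 29.4 in amphetamine knockout mice.

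The 14 other interferon-induced genes of a chosen list, which holds Tap1, had a median log2 fold change of 0.00 in control and 0.10 in knockout mice after amphetamine, and 0.05 over both, with 0 called and 8 of 14 above 0. They summed to between 240 and 304 CPM in saline control, 234 and 313 CPM in amphetamine control, 246 and 358 CPM in saline knockout and 262 and 365 CPM in amphetamine knockout mice. The 8 microglial markers had medians of 0.16, -0.11 and 0.02 in the same comparisons, with 0 called. They summed to 343 to 447 CPM, 443 to 484 CPM, 413 to 546 CPM and 387 to 463 CPM in those groups, and none was at 0. Their part in the Psmb8 and Psmb9 values was not tested.

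**Figure D4:**
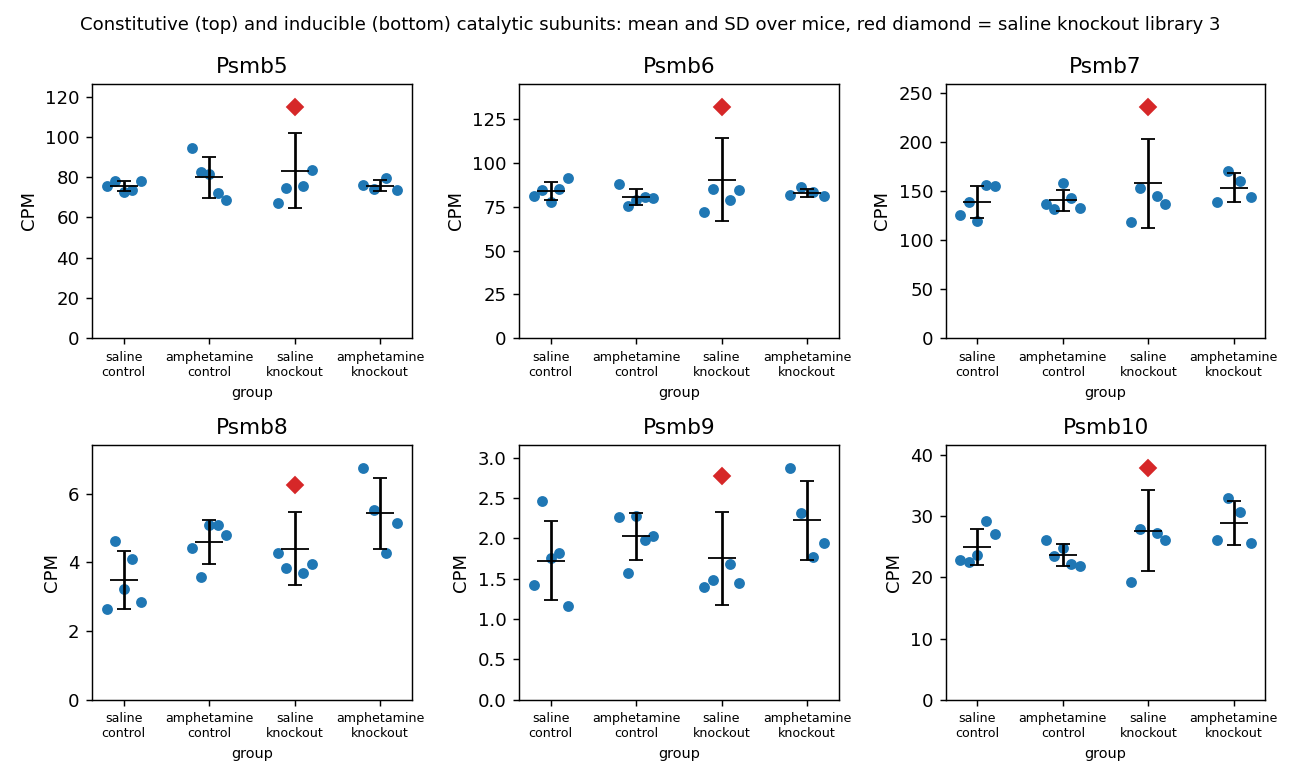
CPM of the constitutive catalytic subunits (top) and the inducible ones (bottom) in each library, with mean and SD per group and saline knockout library 3 as a red diamond. Psmb8 has means of 3.48, 4.59, 4.4 and 5.42 CPM from left to right, and its groups overlap.

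The constitutive catalytic subunits had fold changes near 0 in the average response. Psmb5, the chymotrypsin-like subunit, had 75.4, 78.2, 72.5, 73.6 and 78.3 CPM in saline control and 94.7, 82.7, 81.5, 72.3 and 68.7 CPM in amphetamine control libraries. It had 67.1, 74.7, 115, 75.8 and 83.7 CPM in saline knockout and 76.2, 73.9, 79.6 and 73.5 CPM in amphetamine knockout libraries. The groups overlapped throughout. Its fold change over both genotypes was -0.03 ± 0.0807 (95% confidence interval -0.20 to 0.14). The corresponding values were -0.09 ± 0.0822 for Psmb6 and -0.01 ± 0.0984 for Psmb7. Without saline knockout library 3 the values were 0.04 for Psmb5, -0.01 for Psmb6 and 0.08 for Psmb7, so the sign of Psmb5 and of Psmb7 turned.

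Heat shock genes are another group of protein quality control and were measured in the same libraries. Of 12 listed genes 12 lay below 0 in the average amphetamine response, with a median of -0.27 (-0.25 without saline knockout library 3). EdgeR called 4 of them, against 0.149% of all genes tested, of which 47.5% lay above 0. Of the 39 proteasome members 28 lay below 0, with a median of -0.03 and none called, and without that library 27 lay above 0, with a median of 0.02. The heat shock median was -0.11 in control and -0.37 in knockout mice (-0.12 and -0.36 without the library), where the members had 0.01 and -0.08 (0.00 and 0.03). The list was chosen with earlier results of these data known, and the difference between the lists was not tested.

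Knockout against control under saline asks whether the prefrontal deletion left a mark on these genes at rest. No member was called by edgeR, and 0 of 21513 genes were (0%); 1 member had an unadjusted p under 0.05, against 7.94% of all genes. DESeq2 (0.0093% of all genes called) and limma voom (0%) called 0 members. The authors' deposited table had 1 gene called in all (0.00437%) and none of the 40 members. The median was 0.10, with 35 of 39 members and 14 of 14 core genes above 0, compared with 51% of all genes. Without saline knockout library 3 the median was -0.02, with 10 members (48.2% of all genes) and 3 core genes above 0. Psma1, an alpha ring subunit, went from 0.17 ± 0.0877 (adjusted p = 0.618) to 0.04 without it, and Psmb8 from 0.34 ± 0.177 (adjusted p = 0.618) to 0.17.

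Psmd10, known as gankyrin, which chaperones the assembly of the base, had the smallest p in this comparison. It stood at 18.8, 19.3, 17.3, 22.3 and 15.1 CPM in saline control and at 21.2, 23.7, 32.9, 21.7 and 21.3 CPM in saline knockout libraries. All 5 knockout libraries lay above 4 of the 5 controls, and the groups overlapped only through control library 4. The log2 fold change was 0.38 ± 0.113 (adjusted p = 0.614), and 0.24 without saline knockout library 3 (adjusted p = 0.986; 0.44 to 0.986 over all alternatives). Amphetamine libraries had 20.8, 19.2, 19.9, 19.3 and 17.8 CPM in control and 19, 20.8, 20.8 and 19.4 CPM in knockout mice, and the fold change between these groups was 0.04 ± 0.12 (adjusted p = 0.92). Its difference of responses was -0.34 ± 0.165 (adjusted p = 0.543), or -0.19 without saline knockout library 3. Psmd5 and Psmd9, the other chaperones of the base, were not among the members with the smallest p in any comparison.

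Under amphetamine, knockout against control gave 0 member calls by edgeR (0% of all genes), DESeq2 (0.493%) and limma voom (0%). No member had an unadjusted p under 0.05, against 12.8% of all genes. The median was 0.02, with 21 members above 0 (51% of all genes). Core genes had a median of 0.04 with 11 of 14 above 0, and base and lid genes -0.04 with 4 of 17 above 0. Neither saline group enters this comparison's means, and its median was also 0.02 without saline knockout library 3, with 22 members above 0 (51.5% of all genes). Without amphetamine knockout library 2 it was -0.02. Psmb10 had 26.1, 23.5, 24.8, 22.2 and 21.9 CPM in control and 26.1, 33, 30.7 and 25.6 CPM in knockout libraries, groups that overlapped at their ends. Its log2 fold change was 0.28 ± 0.137 (adjusted p = 0.394), beside a median of 0.26 over the 14 interferon-induced genes, of which 14 lay above 0 and 0 were called. Psmc3ip stood at -0.35 ± 0.183 (adjusted p = 0.445) and Psmd14 at -0.16 ± 0.0942 (adjusted p = 0.511). Beside them, 10 of 10 striatal projection neuron markers lay below 0, with a median of -0.81, and 9 of the 10 had an unadjusted p under 0.05, none called. Hypothalamic markers had a median of 1.43 with 6 of 7 above 0. Their part in these values was not tested.

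Over both treatments, knockout against control had a member median of 0.04 with 30 of 39 above 0 (51.9% of all genes), and -0.02 with 17 above 0 (50.2%) without saline knockout library 3. No member was called by edgeR (0% of all genes), DESeq2 (0.0511%) or limma voom (0%). Unadjusted p was under 0.05 for 4 members, against 11.6% of all genes. These were Psmd10 at 0.21 ± 0.0823, Psmb10 at 0.21 ± 0.0942, Psmb8 at 0.29 ± 0.128 and the beta subunit Psmb2 at 0.17 ± 0.0783, with adjusted p from 0.36 to 0.411. Without that library they were at 0.14, 0.14, 0.21 and 0.10. Psmb1, also of the beta ring, followed at 0.14 ± 0.0789 (adjusted p = 0.501).

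The test of whether the amphetamine response differed between genotypes called 0 members by edgeR (0% of all genes), DESeq2 (0.0697%) and limma voom (0%). No member had an unadjusted p under 0.05 by edgeR, against 9.25% of all genes. The member median was -0.07 with 7 above 0 (50.9% of all genes), and 0.03 with 24 above 0 (53%) without saline knockout library 3. Psmc3ip, the member that is no subunit, had the smallest p at -0.51 ± 0.25 (adjusted p = 0.543), and Psmd14 stood at -0.25 ± 0.129 (adjusted p = 0.553). Without that library they were at -0.33 and -0.14. Striatal projection neuron markers lay below 0 in 10 of 10 cases here, with a median of -0.76, and their part was not tested. Confidence intervals stayed within 1.5-fold for 34 members here, 35 in the responses of knockout mice and in the genotype comparison under amphetamine, 36 in the genotype comparison under saline and in the average response, and 39 in the average genotype comparison.

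**Figure D5:**
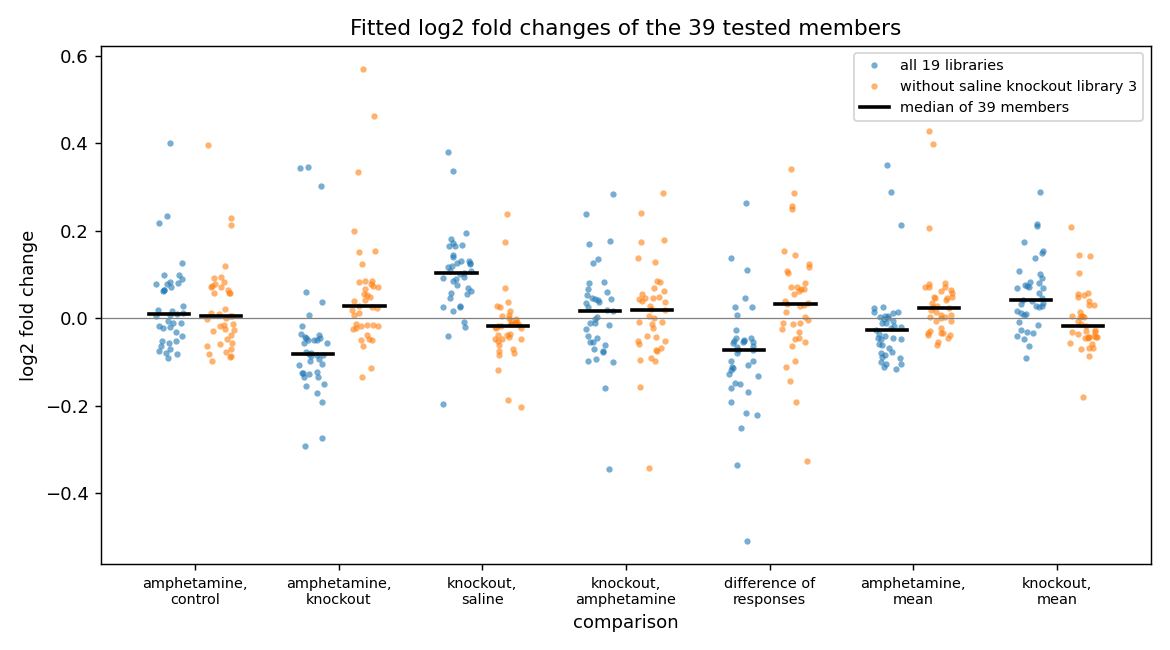
Log2 fold changes of the 39 tested members in 7 comparisons, with all libraries (blue) and without saline knockout library 3 (orange), and their medians as bars. The medians of knockout mice after amphetamine (-0.08 to 0.03) and of knockout under saline (0.10 to -0.02) change sign when that library is left out.

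Genes that work with the proteasome were taken from 6 lists of 45 genes, of which 44 were tested and Paaf1 had no row in the tables. None was called in any of the 7 comparisons by edgeR or limma voom. DESeq2 called 1 gene, Zfand5, in the control response (0.92% of all genes called) and in the average response (2.02%). Values follow in the order control response, knockout response, genotype under saline, genotype under amphetamine, difference, average response and average genotype. Unadjusted p by edgeR was under 0.05 for 3, 5, 4, 1, 1, 6 and 3 of the 44 genes. The shares over all genes were 11.8%, 12.1%, 7.94%, 12.8%, 9.25%, 14.5% and 11.6%. The medians of the 44 genes were -0.01, -0.07, 0.04, -0.01, -0.06, -0.04 and 0.03.

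Assembly chaperones of the core were also high in saline knockout library 3, where 20.7% of all genes tested had their highest level. The genes of this paragraph were not set against that library's trend along gene length. Pomp, which completes core maturation, had 139 CPM in saline knockout library 3 and 80.6 to 96.2 CPM in the other 18, and Psmg2, which helps form the alpha ring, had 24 and 10.6 to 16.6 CPM. The 6 tested assembly genes had medians of 0.24 for knockout under saline and -0.21 for amphetamine in knockout mice, and without that library 0.08 and -0.08. Ubb, which encodes polyubiquitin, was also highest there, and had 1429.8 CPM in that library and 807 to 1032 CPM in the others. Rps27a, which encodes ubiquitin fused to a ribosomal protein, had 414 CPM, its highest of 19. The ubiquitin-activating enzyme genes on the same list were not high there: Uba1 had 249 CPM, its lowest of 19, and Uba6 had 29.4 CPM within a range of 23.9 to 48.8 CPM. The Ubb fold change in knockout mice after amphetamine was -0.26 ± 0.103 (adjusted p = 0.338), and -0.13 without the library.

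The core activators and the inhibitor Psmf1 had medians between -0.01 and 0.10 over the comparisons. Psme1, an interferon-induced subunit of the PA28 activator, was at 0.21 ± 0.0949 for knockout over both treatments (adjusted p = 0.406), and 0.13 without saline knockout library 3. The transcription factor gene Nfe2l1 had 312 to 379 CPM over all 19 libraries, and saline knockout library 3, at 317 CPM, lay inside that range. Its list of 8 regulators had medians between -0.04 and 0.03. Shuttle factors and the segregase Vcp with its cofactors had medians between -0.06 and -0.01.

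Zfand5, a proteasome-binding zinc finger protein that stimulates degradation, had the smallest p of these genes. It had 173, 183, 162, 148 and 151 CPM in saline control and 212, 206, 209.9, 187 and 194 CPM in amphetamine control libraries, which did not overlap, as held for 3.9% of all genes tested and for 0 of 39 members. In knockout mice it had 164, 172, 181, 161 and 180.3 CPM after saline and 180.3, 168, 210.0 and 194 CPM after amphetamine, which overlapped. The log2 fold change was 0.30 ± 0.0741 in control mice (adjusted p = 0.149) and 0.22 ± 0.0539 over both genotypes (adjusted p = 0.0855), and neither was called by edgeR. DESeq2 called both (adjusted p = 0.0161 and 0.00806), and limma voom neither (adjusted p = 0.174 and 0.0827). The average response was also called by edgeR without amphetamine knockout library 2 (adjusted p = 0.0401), and over all alternatives its fold change ran from 0.19 to 0.25. The summed striatal projection neuron markers did not overlap between these control groups either, and their part was not tested.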

How the data were processed

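Striatal RNA of 19 mice was sequenced, 1 library per mouse, and groups were taken from the sample titles. The authors deposited whole-number counts per gene for each library. FastQC 0.11.5, Trim Galore 0.5.0, STAR 2.6.0c, HTSeq 0.6.1p2, DESeq2, R 3.6.1 and the build GRCm39 are named in the submitters' processing notes, while for the strand setting and the annotation release nothing is given in the sources used here. The authors also deposited 3 comparison tables, which per the file headers hold FPKM, a normalized mean over the libraries compared (a signal), log2 fold changes with SE, a test statistic (a score) and p-values with adjusted p-values. Gene symbols, types and GRCm39 coordinates came from those tables. FPKM and counts of a library had Spearman correlations over genes from 0.954 to 0.958, and 0 lines of the count files named no gene.

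Counts were tested with edgeR 4.0.16 in R 4.3.3: filterByExpr kept 21513 of 49592 genes, TMM scaled them, and the robust quasi-likelihood fit used 4 group means over all 19 libraries. P-values were adjusted by Benjamini-Hochberg over all genes tested and called under 0.05. Here the SE is the log2 fold change over the root of F, and log2 CPM uses a prior count of 2. The 7 contrasts share control groups, so their values are not independent. The code was tested on simulated data before use. Alternatives were size factors of DESeq2, no filter, DESeq2 1.42.0, limma 3.58.1 voom, only the groups compared, a replicate block and leaving out each library. Leaving out saline knockout library 3 with amphetamine knockout library 2, and leaving out 5 libraries that stand apart, were chosen after seeing the data.

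The members and lists were chosen with earlier results of these data known. Members named with values are the catalytic and inducible subunits, those with the 3 smallest p in a comparison (5 in the averaged ones), the highest and lowest of each role in FPKM and those under 1 CPM. Other pathway genes are named by the 3 smallest p in a comparison. Psmb4, Nfe2l1, Pomp, Psmg2, Ubb, Rps27a, Uba1, Uba6 and members in sentences on saline knockout library 3 were also picked after their values were seen. No libraries of a group were copies of each other (smallest chi-square per degree of freedom 10.3). Mice with the same number in their titles were not treated as paired: of 27 such pairs 1 had correlated deviations over 0.1. This check cannot settle pairing. The submitters' own numbering skips a mouse among the amphetamine knockouts, so title numbers after the first do not match it there. The replicate block used the title numbers too. Protein sequences were not used here.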

Additional observations from a re-analysis of the deposited data

Results flagged for a closer look

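Members were checked for a library far from the rest of its group, measured as the gap to its nearest neighbour over the range of the group. Chance flags about 1 in 20 groups looked at singly. Of 156 pairs of member and group 30 were flagged, and in 21 of these the library was saline knockout 3. The pairs are not independent: 34 of 39 members had their highest level in that library, as did 20.7% of all genes tested. No flagged share over all genes is given here, so the count of flags is no result about the members. The median deviation of all tested members was flagged in saline knockout library 3, with a gap of 0.777 of the range.

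Among the named members, those flagged for saline knockout library 3 were the core genes Psma1 (0.82 of the range), Psmb1 (0.869) and Psmb6 (0.722), and the inducible Psmb8 (0.724) and Psmb9 (0.724). The base ATPases Psmc1 (0.745) and Psmc5 (0.77), the lid genes Psmd12 (0.738) and Psmd14 (0.742) and the chaperone Psmd10 (0.751) were flagged in the same library. The lid subunit Psmd7 was flagged in 2 other groups, for saline control library 5 at 96.4 CPM (0.812 of the range) and amphetamine control library 1 at 104 CPM (0.737).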

How the results depend on the processing

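No member was called in any of the 7 comparisons under any of 27 alternatives, and the smallest adjusted p of a member was 0.0727. Of 36 printed fold changes of single genes, 4 changed sign: Psmb5, Psmb7 and Psmb10 in the average response and Psmd10 for knockout under amphetamine. Leaving out 1 library at a time gave -0.064 to 0.042, -0.058 to 0.081 and -0.065 to 0.057 for the first 3 genes, with saline knockout library 3 at the upper end. Without that library and amphetamine knockout library 2 they were at 0.051, 0.056 and 0.024. Without the 5 libraries that stand apart Psmb5 was at 0.032 and Psmb7 at 0.016, and limma voom gave 0.0091 for Psmb7 and 0.0032 for Psmb10. Psmd10 was at -0.0061 with the replicate block and -0.0049 without those 5 libraries. The medians were below the pooled spread of library medians (SD 0.139 on the log2 scale) under every alternative except 1: knockout under saline was 0.15 without saline knockout library 1. That SD describes single libraries and is no standard error of these medians. It also takes in saline knockout library 3, whose member median was 0.49 against -0.15 to 0.08 in the other 18. Leaving out 1 library at a time gave medians from -0.01 to 0.03 for amphetamine in control mice, -0.12 to 0.03 in knockout mice, -0.02 to 0.15 for knockout under saline and -0.02 to 0.05 under amphetamine. It gave -0.12 to 0.03 for the difference of responses, -0.06 to 0.02 for the average response and -0.02 to 0.06 for the average genotype comparison. Saline knockout library 3 set the end of opposite sign in all but the first and the fourth of these. The fit with a replicate block gave medians of 0.01, -0.07, 0.09, 0.01, -0.07, -0.03 and 0.04 in the same order with 0 members called, and moved the count over all genes from 1 to 5 in knockout mice and from 32 to 18 in the average response. DESeq2 called 198, 99, 2, 106, 15, 435 and 11 genes over all genes in that order, where edgeR called 1, 1, 0, 0, 0, 32 and 0, and limma voom 1, 3, 0, 0, 0, 30 and 0; the cause was not tested. The 95% confidence intervals of Psma8 and Psmb8, which had low counts, reached a 1.5-fold change in every comparison except the average genotype comparison.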

Other observations

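Saline knockout library 1 lay opposite to saline knockout library 3, with the lowest member median of all 19 libraries (-0.15), at 0.307% of its counts. Psmd2 and Psmb8 had different exceptional libraries: Psmd2 was highest in amphetamine control library 1, at 245 CPM, and Psmb8 was highest in amphetamine knockout library 1, at 6.74 CPM. Amphetamine knockout library 1 was also the highest for Psmb9, at 2.87 CPM, while its Psmb10 stood at 26.1 CPM, inside the range of the other libraries.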
